A study of Mus musculus with 6 samples.

Results

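The tumour necrosis factor (TNF) superfamily was followed in innate lymphoid cells (ILCs) of the mouse lung, in libraries from Rbm3 knockout mice (RBM3KO) and wild-type mice (WT). Members were all rows of the count table whose symbol starts with Tnfrsf or Tnfsf and a number, Traf1 to Traf7, and Tnf, Lta, Ltb, Ltbr, Fas, Fasl, Cd27, Cd40, Cd40lg, Cd70, Tradd and Fadd. This rule took 50 of 14416 genes, of which 17 encode ligands, 24 encode receptors and 9 encode TRAFs or adaptors.

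The 3 RBM3KO samples and the 3 WT samples were of strain C57BL/6J, and every mouse had received 25 µg of the mould allergen Alternaria alternata 3 times over 7 days, so no sample comes from an unchallenged lung. Lineage-negative, Thy1.2-positive cells were sorted from lungs into TrizolLS and profiled by Smart-seq2 RNA-seq. None of the sources used here gives the kind of Rbm3 allele, the lineage antibodies or the ages. Nor do the labels say that each sample is a different animal, so the p-values reflect the spread among these libraries, and that spread could be technical.

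Ligands of the TNF superfamily are mostly membrane proteins that act as trimers on receptors of neighbouring cells. Receptors with a death domain recruit TRADD or FADD and can start cell death, whereas the other signalling receptors bind TRAF proteins and turn on NF-kB and MAP kinases. In mouse lung type 2 ILCs (ILC2s), GITR, DR3 and OX40 ligand are known as parts of the exchange between these cells, myeloid cells and T cells.

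Rbm3 itself stood at 26.5, 22.4 and 31.6 CPM in the RBM3KO libraries, against 270, 314 and 293 CPM in the WT libraries, so every library matched its label. CPM scales a gene's count by the library's total and by the TMM factor. Its log2 fold change, always RBM3KO over WT, was -3.45 (SE 0.15, edgeR adjusted p = 2.23e-06). Total counts ran from 7498247 to 16936670 in RBM3KO and from 13339633 to 25068137 in WT. The ILC markers Thy1, Id2, Il7r, Gata3, Il2rg, Kit and Rora were present in every library, and their summed level was 5689 to 6058 CPM of the total count in RBM3KO and 4783 to 4884 CPM in WT. The 8 ILC2 markers summed to 7772 to 8357 CPM in RBM3KO and 5849 to 7090 CPM in WT, and 0 of them passed the test. All 8 had a log2 fold change above 0, with a median of 0.45. At an unadjusted p under 0.05 (edgeR), 5 of the 8 were higher and 0 lower. That is 62.5% higher, against 5.46% of all genes. All RBM3KO libraries lay above all WT libraries for 6 of the 8, or 75%, against 8.43% of all genes. Of the 7 ILC markers, 4 were higher by either measure, or 57.1%. One ILC marker was called, Il2rg, the common cytokine receptor chain, at 2736 ± 203 CPM in RBM3KO and 2079 ± 47.6 CPM in WT (0.40 on the log2 scale, edgeR adjusted p = 0.0393). Neither list overlapped between the genotypes in its sum, and the part of this in the results below was not tested. Markers of macrophages, monocytes and dendritic cells had a summed level of 3.91 to 64.0 CPM in RBM3KO and 25.6 to 165 CPM in WT. That of the granulocyte and mast cell markers was 15.7 to 22.5 CPM in RBM3KO and 22.7 to 33.2 CPM in WT, and that of epithelium, stroma and endothelium 75.4 to 322 CPM in RBM3KO and 60.0 to 144 CPM in WT. Of these 3 lists, 6, 3 and 5 markers were tested and 0 passed.

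The family was unevenly expressed. Of the 50 members, 10 had a mean of at least 100 CPM over the 6 libraries, 20 had 10 to 100 CPM, 12 had 1 to 10 CPM and 8 had less than 1 CPM. Levels were also divided by the length of the transcript with the longest coding sequence, which allows only a rough comparison between genes. Per kilobase of that transcript, the order was led by Ltb at 1114, Tnfrsf18 at 708, Traf1 at 187, Tnfrsf25 at 152 and Tnfrsf4 at 141 CPM per kb. For Traf1 the transcript has 3436 bases, where all its annotated exons cover 8819 bases, so its place depends on the length used. Tnfrsf25 had 154 ± 11.4 CPM per kb in RBM3KO and 150.0 ± 25.6 CPM per kb in WT, and Tnfrsf4 had 155 ± 33.5 and 126 ± 33.3 CPM per kb in RBM3KO and WT (SD, n = 3 each), so these neighbours in the order did not differ beyond their spread. Summed over all members, the family took 4887 to 5268 CPM of the total count in RBM3KO and 4202 to 4619 CPM in WT, and Ltb, Tnfrsf18 and Traf1 made up 54.7% to 59.4% of it in any library.

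**Figure D1:**
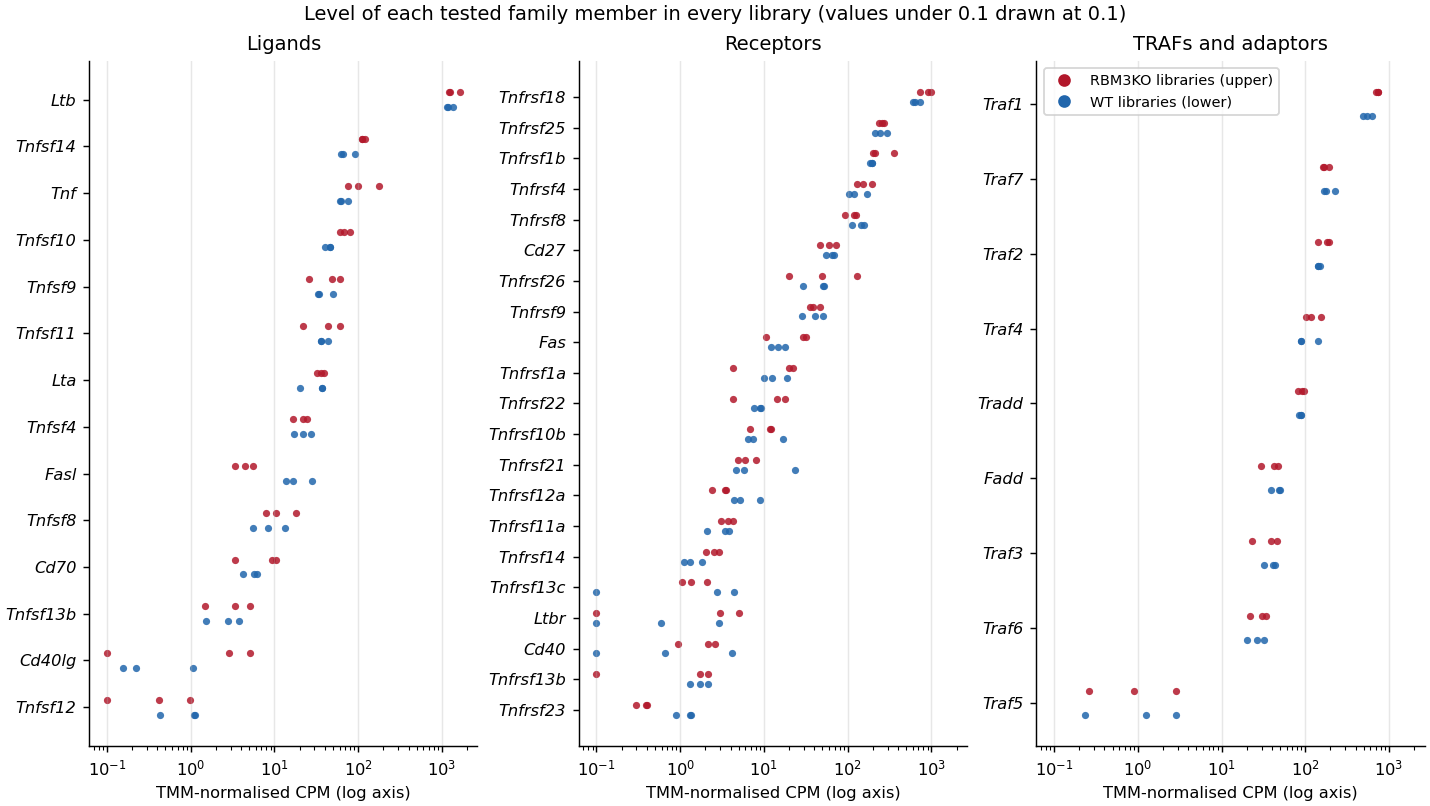
TMM-normalised CPM on a log axis for the 44 tested members, with 1 point per library, RBM3KO in red above WT in blue, and values under 0.1 drawn at 0.1. Means over the 6 libraries span from 0.675 CPM for Tnfsf12 to 1292 CPM for Ltb. All RBM3KO libraries lie above all WT libraries for 6 members and below for 3, Fasl among these 3. Together these are 20.5% of the tested members, near the 18.9% of all genes.

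The low-count filter (edgeR's filterByExpr) kept 44 members, that is 14 ligands, 21 receptors and all 9 TRAFs and adaptors. The 6 that failed were the ligand genes Tnfsf13, Tnfsf15 and Tnfsf18 and the receptor genes Tnfrsf11b, Tnfrsf17 and Tnfrsf19, with at most 43 counts in any library. Of the 44, 1 was called, Fasl, and it was lower in RBM3KO, while 43 did not pass (edgeR quasi-likelihood test, adjusted p under 0.05 over all genes). That is 2.27% of the tested members, where 1.24% of all 11381 tested genes other than Rbm3 were called and 0.993% were called lower. At an unadjusted p under 0.05 there were 6 members higher and 1 lower. The share higher was 13.6% of the members and 5.46% of all genes, and the share in either direction was 15.9% against a background of 12.3%. The 6 were Tnfsf14, Tnfsf10, Tnf, Tnfrsf18, Tnfrsf1b and Traf1. The log2 fold change was above 0 for 30 of the 44 members, with a median of 0.18, and above 0 for 5793 of all genes, with a median of 0.01.

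Genotypes that do not overlap are a description with 3 samples on each side, since an exact two-sided permutation test of a single gene cannot give a p below 0.1. All RBM3KO libraries lay above all WT libraries for 6 members (Tnfsf14, Tnfsf10, Tnf, Tnfrsf1b, Tnfrsf14 and Traf1), or 13.6%, where 8.43% of all genes did. They lay below for 3 members, Fasl, Tnfrsf12a and Tnfrsf23. Together these were 20.5% of the tested members, near the background of 18.9%.

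**Figure D2:**
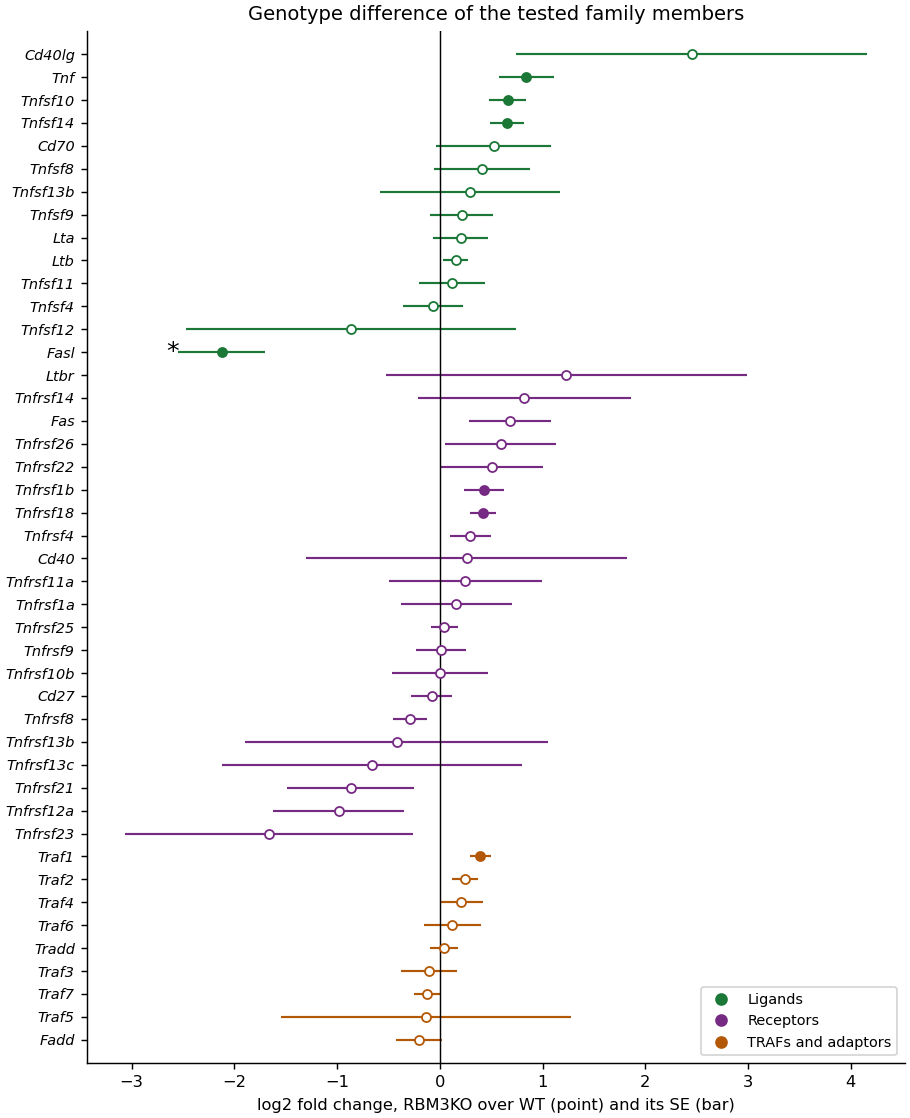
Log2 fold change of RBM3KO over WT for the 44 tested members, with a bar of 1 SE on either side, coloured by role. Filled points have an unadjusted p under 0.05 and the star marks the adjusted p under 0.05, which is that of Fasl at -2.12, and the wide bars belong to members of few counts such as Cd40lg and Ltbr.

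Several family transcripts carry AU-rich elements, short repeats in the 3′ untranslated region that proteins such as tristetraprolin bind in mouse cells to speed the decay of cytokine mRNAs, Tnf being the textbook case. They are shown because Rbm3 encodes an RNA-binding protein. Every match to the nonamer TTATTTATT on the transcript strand was searched in the transcript with the longest coding sequence (GENCODE M21, build mm10). Of the 43 tested members with an annotated region, 6 held it, or 13.95%, against 759 of 10798 tested genes, or 7.03%. Its core, the pentamer ATTTA, which the nonamer contains, was in 69.8% of the members and 65.2% of the genes. Tnf held 5 overlapping nonamers and 8 pentamers, and the other 5 members held 1 nonamer each. The windows of 30 bases below, from 5 of these members, run 5′ to 3′ as DNA, with the nonamers in capitals. That of Tnf ends before the last of its 5 nonamers is complete. Tnf lies at chr17:35199681-35199710, Lta at chr17:35203395-35203424 and Traf4 at chr11:78159462-78159491, all on the minus strand. Tnfrsf10b lies at chr14:69783498-69783527 and Tnfsf13b at chr8:10037074-10037103, both on the plus strand.
Tnf: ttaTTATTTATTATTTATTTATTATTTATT
Lta: aaaagttaagTTATTTATTtatagagaata
Traf4: ccctctctggTTATTTATTtctctagtgct
Tnfrsf10b: taattttttaTTATTTATTttcttcattca
Tnfsf13b: attggcccatTTATTTATTgaattgtttgg

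None of the members with a nonamer passed the test. The log2 fold changes of the 5 shown were 0.84 for Tnf, 0.29 for Tnfsf13b, 0.21 for Traf4, 0.20 for Lta and 0.00 for Tnfrsf10b. Fasl, the member that was called, held 1 pentamer and 0 nonamers in 887 bases. A match is a description of the letters and not evidence that a protein binds there.

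Among the ligands, Fasl, which encodes the ligand of the death receptor Fas and lies on the minus strand at chr1:161780689-161788495 (mm10), fell in RBM3KO. It had 84, 57 and 33 counts in the RBM3KO libraries, against 184, 477 and 420 counts in the WT libraries. In CPM these were 5.48, 3.40 and 4.44 in RBM3KO and 13.6, 28.04 and 16.45 in WT, so the highest RBM3KO library lay below the lowest WT library. The means were 4.44 ± 1.04 CPM in RBM3KO and 19.4 ± 7.65 CPM in WT (SD, n = 3 each), which is 4.36-fold lower (log2 fold change -2.12, SE 0.42, edgeR adjusted p = 0.0393). The call held under 5 of 14 alternative settings and ended under 9. It ended with limma-voom (adjusted p = 0.0897), with libraries thinned to equal depth (0.0782), with the replicate number as a block (0.0749) and when any 1 of the 6 libraries was dropped (0.0707 to 0.219). Over the 14 alternatives the log2 fold change stayed between -2.32 and -1.76, and the value nearest to 0 was that without WT replicate 2.

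Fasl is made by NK cells and activated T cells as well as ILCs of type 1. In bulk samples, fewer cells of a type and less RNA per cell cannot be told apart. Of the 9 NK and ILC1 markers listed, 8 were in the table and tested and 0 passed. None was at 0 in all libraries of a genotype. The log2 fold change was below 0 for 7 of the 8, with a median of -0.68, and for 5588 of all 11381 tested genes. At an unadjusted p under 0.05 (edgeR), 3 of the 8 were lower and 0 were higher, or 37.5%. For all genes that share was 12.3%, in either direction. The summed level of the NK and ILC1 markers was 336, 287 and 262 CPM of the total count in RBM3KO, against 388, 720 and 300 CPM in WT. WT replicate 2 had the highest sum and the highest Fasl value, and the sums of the genotypes overlapped. The 10 T cell markers summed to 541, 702 and 620 CPM in RBM3KO and 473, 584 and 557 CPM in WT, with 8 tested, 0 past the test and Cd5 at 0 in each RBM3KO library. Lat and Cd3g, at means of 335 and 243 CPM in RBM3KO and 273 and 177 CPM in WT, made up most of that sum. Of the 8 tested T cell markers, 5 had a log2 fold change below 0, with a median of -0.30, so the sum and the median differ in direction. The part of these cells in the Fasl result was not tested, and without WT replicate 2 the log2 fold change of Fasl was -1.76 (edgeR adjusted p = 0.219).

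Of the other ligands, 3 had higher values in every RBM3KO library without passing the adjusted test. Tnfsf14, or LIGHT, a ligand of HVEM and of the lymphotoxin beta receptor, had 122, 112 and 111 CPM in RBM3KO and 91.5, 61.7 and 66.3 CPM in WT. Its means were 115 ± 5.77 CPM in RBM3KO and 73.2 ± 16.04 CPM in WT (log2 fold change 0.65, SE 0.17, edgeR adjusted p = 0.105). The adjusted p ran from 0.0205 with DESeq2 to 0.297 over the 14 alternatives, and Tnfsf14 was called with DESeq2 and with limma-voom (0.0488) only.

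Tnfsf10 encodes TRAIL, which triggers death receptors. It had 60.1, 79.6 and 68.6 CPM in RBM3KO and 46.3, 45.85 and 39.75 CPM in WT, again without overlap. The means were 69.5 ± 9.75 CPM in RBM3KO and 44.0 ± 3.67 CPM in WT (log2 fold change 0.66, SE 0.18, edgeR adjusted p = 0.131). It was called with DESeq2 only (adjusted p = 0.0381), and its adjusted p reached 0.348 over the alternatives.

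Tnf encodes the cytokine that gives the family its name. It had 75.9, 180 and 98.8 CPM in RBM3KO and 59.9, 75.4 and 62.8 CPM in WT. RBM3KO replicate 2 stood far above the rest, and RBM3KO replicate 1 lay barely above WT replicate 2. The means were 118 ± 54.5 CPM in RBM3KO and 66.0 ± 8.27 CPM in WT (log2 fold change 0.84, SE 0.27, edgeR adjusted p = 0.199). Without RBM3KO replicate 2 the log2 fold change was 0.40 (adjusted p = 0.446), and no alternative called Tnf.

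**Figure D3:**
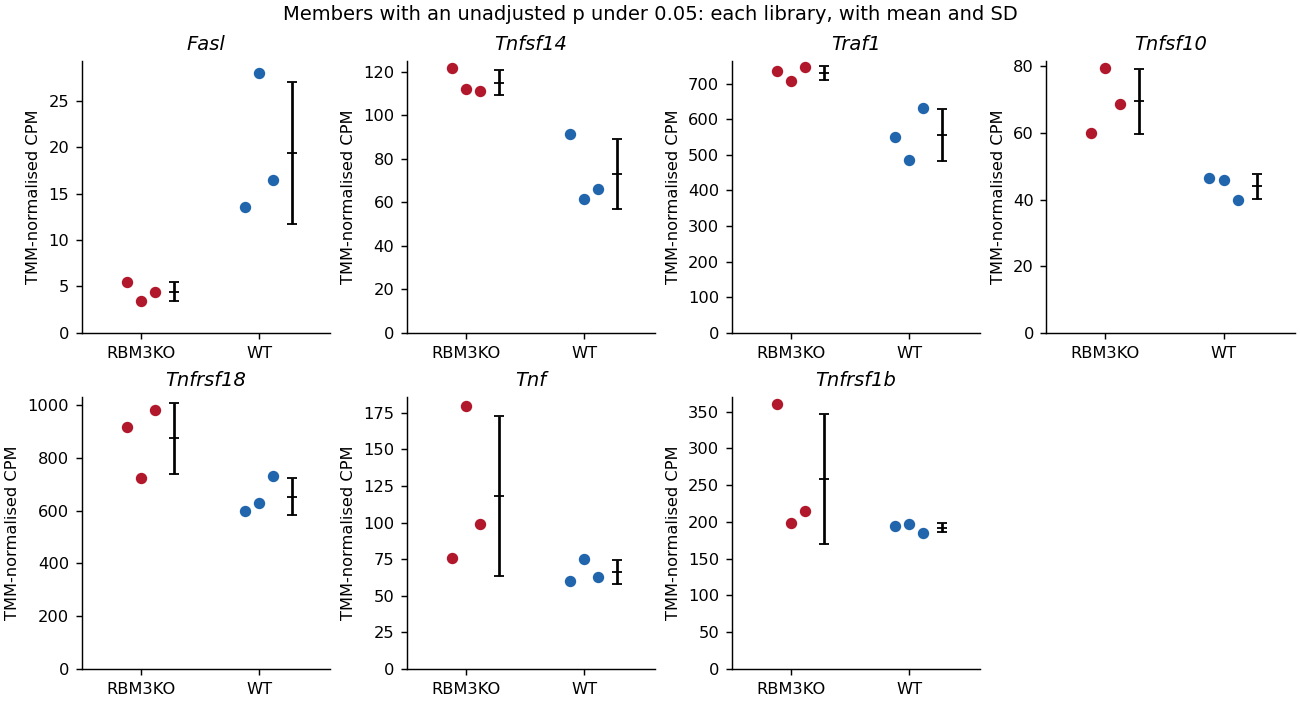
TMM-normalised CPM in each library for the 7 members with an unadjusted p under 0.05, RBM3KO left of WT, with the mean and SD as a black bar (n = 3 each). Fasl is low in all RBM3KO libraries at 3.40 to 5.48 CPM, while for Tnf and Tnfrsf1b a single RBM3KO library lies far above the other 2.

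Ltb, the most abundant member, encodes lymphotoxin beta, which anchors lymphotoxin alpha at the membrane. It had 1245, 1637 and 1202 CPM in RBM3KO and 1352, 1146 and 1168 CPM in WT, and the genotypes overlapped (log2 fold change 0.16, SE 0.12, edgeR adjusted p = 0.702). Its partner Lta, lymphotoxin alpha, averaged 35.7 ± 3.18 CPM in RBM3KO and 31.1 ± 9.42 CPM in WT (0.20, SE 0.27). Ltb, Tnf and Lta lie within 10913 bases on chromosome 17, and none of these neighbours passed the test.

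Ligands that costimulate T cells stood at low to middle levels and overlapped between the genotypes. Tnfsf9, the ligand of CD137, averaged 45.1 ± 17.9 CPM in RBM3KO and 39.1 ± 9.24 CPM in WT (log2 fold change 0.21, SE 0.30). Tnfsf4, or OX40 ligand, through which mouse lung ILC2s act on T cells, averaged 21.0 ± 3.94 CPM in RBM3KO and 22.1 ± 5.05 CPM in WT (-0.07, SE 0.29). Tnfsf8, or CD30 ligand, averaged 12.1 ± 5.27 CPM in RBM3KO and 9.11 ± 4.05 CPM in WT (0.41, SE 0.47). Cd70, the ligand of CD27, averaged 7.75 ± 3.81 CPM in RBM3KO and 5.38 ± 1.07 CPM in WT (0.52, SE 0.56). Exons of Tnfsf9 overlap those of Gm11110 on the other strand by 113 bases, and the library type does not keep strand, so its reads cannot be fully told apart.

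Tnfsf11, or RANKL, averaged 41.8 ± 19.1 CPM in RBM3KO and 38.5 ± 4.73 CPM in WT (log2 fold change 0.12, SE 0.32), with RBM3KO libraries from 22.05 to 60.2 CPM on both sides of the WT range. Tnfsf13b, the B cell survival factor BAFF, averaged 3.32 ± 1.81 CPM in RBM3KO and 2.71 ± 1.13 CPM in WT (0.29, SE 0.88). Cd40lg, the ligand of CD40, had 0, 48 and 38 counts in RBM3KO and 3, 18 and 4 counts in WT, which gave the highest log2 fold change of the tested members with a wide error (2.45, SE 1.71, edgeR adjusted p = 0.650). Tnfsf12, or TWEAK, had 0 to 15 counts in RBM3KO and 11 to 19 counts in WT (-0.87, SE 1.61).

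The ligands that failed the filter were near the floor of detection, where a count of 0 allows up to 3 counts, or 0.120 to 0.400 CPM across these libraries by counting error alone. Tnfsf18, or GITR ligand, had 0, 1 and 0 counts in RBM3KO and 0, 12 and 0 counts in WT. Tnfsf15, or TL1A, the ligand of DR3, had 0, 0 and 1 counts in RBM3KO and 8, 0 and 0 counts in WT. Tnfsf13, or APRIL, had 0, 1 and 1 counts in RBM3KO and 0 in each WT library, and it shares 983 exon bases with the read-through gene Tnfsfm13, as Tnfsf12 shares 728.

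Among the receptors, 0 of 21 tested genes passed the test, and the receptors known to costimulate ILC2s were the most abundant. Tnfrsf18 encodes GITR. It had 917, 722 and 981 CPM in RBM3KO and 597, 631 and 731 CPM in WT, and RBM3KO replicate 2 lay just below WT replicate 3. The means were 874 ± 135 CPM in RBM3KO and 653 ± 69.7 CPM in WT (log2 fold change 0.42, SE 0.12, edgeR adjusted p = 0.168). It was called with DESeq2 only (adjusted p = 0.0287), and its adjusted p reached 0.496 over the alternatives.

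Tnfrsf25, which encodes the TL1A receptor DR3, had 258, 275 and 237 CPM in RBM3KO and 244, 210 and 294 CPM in WT, so the RBM3KO libraries lay within the WT range (log2 fold change 0.04, SE 0.13, edgeR adjusted p = 0.952). Tnfrsf4, or OX40, had 129, 197 and 152 CPM in RBM3KO and 103, 169 and 119 CPM in WT (0.29, SE 0.20, edgeR adjusted p = 0.638). The spread of about 34 CPM within each genotype was larger than the difference between the means, 160 ± 34.5 CPM in RBM3KO and 130 ± 34.3 CPM in WT. Tnfrsf4 and Tnfrsf18 are neighbours on chromosome 4, within 15053 bases, and both had positive estimates that did not pass.

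Tnfrsf1b encodes TNFR2, the TNF receptor without a death domain. It had 360, 199 and 215 CPM in RBM3KO and 194, 197 and 185 CPM in WT. The genotypes did not overlap, but RBM3KO replicate 2 lay within 3 CPM of WT replicate 2 and RBM3KO replicate 1 alone was high. The means were 258 ± 88.7 CPM in RBM3KO and 192 ± 5.89 CPM in WT (log2 fold change 0.43, SE 0.19, edgeR adjusted p = 0.403). Without RBM3KO replicate 1 the log2 fold change was 0.11 (adjusted p = 0.805). Tnfrsf1a, which encodes the death-domain receptor TNFR1, had 4.24, 20.1 and 22.1 CPM in RBM3KO and 12.6, 18.6 and 10.1 CPM in WT (0.16, SE 0.54). Per kilobase, Tnfrsf1b stood at 58.9 CPM per kb and Tnfrsf1a at 6.79 CPM per kb over the 6 libraries.

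Tnfrsf8, or CD30, had 120, 91.7 and 127 CPM in RBM3KO and 111, 146 and 156 CPM in WT, with overlap (log2 fold change -0.29, SE 0.17, edgeR adjusted p = 0.541). Cd27, a receptor of naive and memory lymphocytes, had 73.1, 60.25 and 46.2 CPM in RBM3KO and 65.5, 55.7 and 68.7 CPM in WT (-0.08, SE 0.20). Tnfrsf9, or CD137, had 39.0, 46.3 and 35.5 CPM in RBM3KO and 50.7, 40.85 and 28.7 CPM in WT (0.01, SE 0.25). The libraries of the genotypes overlapped for each of these receptors.

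Of the other receptors with a death domain, Fas had 29.3, 31.8 and 10.5 CPM in RBM3KO and 17.7, 14.9 and 12.3 CPM in WT, with RBM3KO replicate 3 below every WT library (log2 fold change 0.68, SE 0.40, edgeR adjusted p = 0.557). Tnfrsf10b, the TRAIL death receptor of the mouse, averaged 10.2 ± 3.05 CPM in RBM3KO and 10.2 ± 5.73 CPM in WT (0.00, SE 0.47). Tnfrsf21, or DR6, had 5.87, 4.96 and 7.94 CPM in RBM3KO and 5.84, 4.70 and 23.4 CPM in WT, so WT replicate 3 alone was high (-0.87, SE 0.62). Without that library its log2 fold change was 0.24.

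Tnfrsf26, Tnfrsf22 and Tnfrsf23 lie side by side within 78214 bases on chromosome 7, and mouse TNFRSF22 and TNFRSF23 are decoy receptors for TRAIL. Reads of these close paralogues could have been split in counting. Tnfrsf26 had 129, 49.7 and 19.9 CPM in RBM3KO and 50.9, 52.7 and 29.4 CPM in WT, a ratio of 6.49 between the highest and the lowest RBM3KO library. Tnfrsf22 had 17.8, 14.2 and 4.31 CPM in RBM3KO and 8.87, 7.58 and 9.28 CPM in WT. For both genes replicate 1 was the highest and replicate 3 the lowest of the RBM3KO libraries, and the log2 fold changes were 0.59 (SE 0.54) and 0.51 (SE 0.50). Without RBM3KO replicate 1 the log2 fold change of Tnfrsf26 was -0.33. Tnfrsf23 had 6, 5 and 3 counts in RBM3KO and 18, 15 and 33 counts in WT, without overlap in CPM (-1.67, SE 1.40, edgeR adjusted p = 0.735). Exons of Tnfrsf26 and Tnfrsf23 overlap those of the antisense gene E230032D23Rik.

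The remaining tested receptors had mean levels under 10 CPM. Tnfrsf12a, or Fn14, the receptor of TWEAK, had 2.41, 3.40 and 3.50 CPM in RBM3KO and 4.36, 5.11 and 8.93 CPM in WT, without overlap (log2 fold change -0.98, SE 0.64, edgeR adjusted p = 0.615). Tnfrsf14, or HVEM, had 2.87, 2.03 and 2.56 CPM in RBM3KO and 1.11, 1.29 and 1.80 CPM in WT, also without overlap (0.82, SE 1.03, edgeR adjusted p = 0.855). Tnfrsf11a, or RANK, averaged 3.70 ± 0.602 CPM in RBM3KO and 3.12 ± 0.898 CPM in WT (0.25, SE 0.74). Ltbr, the lymphotoxin beta receptor of stromal and myeloid cells, had 78, 50 and 0 counts in RBM3KO and 8, 49 and 0 counts in WT (1.23, SE 1.76).

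Receptors that mark B lineage cells were at the bottom of the tested range. Tnfrsf13c, the BAFF receptor, had 16, 35 and 10 counts in RBM3KO and 37, 0 and 111 counts in WT (log2 fold change -0.66, SE 1.46). Tnfrsf13b, or TACI, had 0, 29 and 16 counts in RBM3KO and 29, 22 and 44 counts in WT (-0.42, SE 1.47). Cd40, the receptor of antigen-presenting cells, had 40, 36 and 7 counts in RBM3KO and 9, 70 and 0 counts in WT (0.26, SE 1.56). In the same libraries the B and plasma cell markers, 8 of 9 in the table and tested and 0 past the test, summed to 45.2 to 57.5 CPM of the total count in RBM3KO and 78.1 to 110 CPM in WT, without overlap, and Igj was at 0 in each RBM3KO library. Of these 8 markers, 7 had a log2 fold change below 0, where 5588 of all 11381 tested genes did. All RBM3KO libraries lay below all WT libraries for 4 of the 8 and above for 0, or 50%, against 18.9% of all genes. At an unadjusted p under 0.05 (edgeR), 2 of the 8 were lower and 0 higher, or 25%, against 12.3% of all genes. The part of B and plasma cells in the receptor values was not tested. Tnfrsf17, or BCMA, had 0 counts in each RBM3KO library and 0, 4 and 0 in WT. Tnfrsf11b, or osteoprotegerin, had 0 counts in each RBM3KO library and 0, 0 and 43 in WT, and Tnfrsf19, or TROY, had 0, 0 and 11 counts in RBM3KO and 0, 0 and 15 in WT.

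Set against each other per kilobase of transcript, ligands and receptors of 22 known pairs were often unequal. In 15 pairs both partners had a median of at least 1 CPM over the 6 libraries. GITR and DR3 were high without their ligands, with Tnfrsf18 at 708 and Tnfsf18 at 0.0617 CPM per kb, and Tnfrsf25 at 152 and Tnfsf15 at 0.0361 CPM per kb. The reverse held for lymphotoxin, with Ltb at 1114 and Ltbr at 0.913 CPM per kb, and for LIGHT, with Tnfsf14 at 51.0 and its receptor gene Tnfrsf14 at 1.66 CPM per kb. Tnf and Tnfrsf1b were close, at 56.2 and 58.9 CPM per kb. For the pair that holds the changed gene, Fasl stood at 2.29 ± 0.536 CPM per kb in RBM3KO and 9.996 ± 3.95 CPM per kb in WT, and Fas at 16.1 ± 7.85 and 10.1 ± 1.83 CPM per kb in RBM3KO and WT (SD, n = 3 each).

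**Figure D4:**
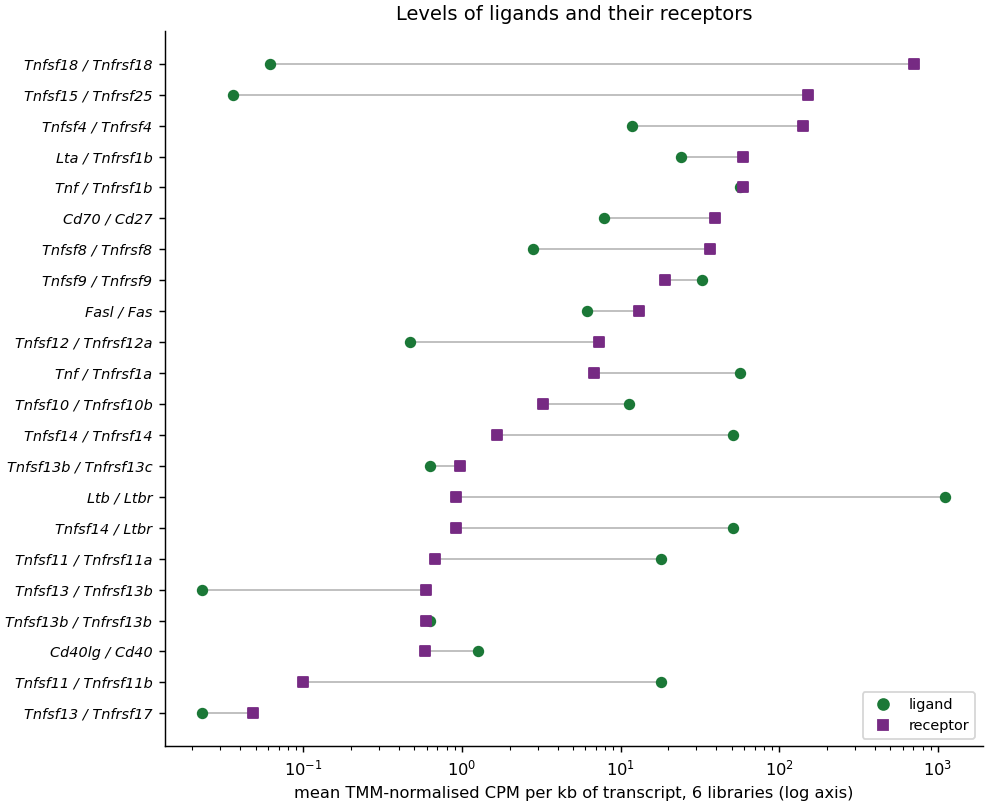
Mean TMM-normalised CPM per kb of transcript over the 6 libraries, on a log axis, for 22 pairs of a ligand (green circle) and its receptor (purple square), ordered by the receptor. Tnfrsf18 and Tnfrsf25 stand far above their ligands, and Ltb and Tnfsf14 far above Ltbr and Tnfrsf14.

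Of the 9 TRAFs and adaptors, 0 passed the test. Traf1, a TRAF without a RING domain that NF-kB induces, was the most abundant. It had 735, 708 and 747 CPM in RBM3KO and 551, 486 and 630 CPM in WT, without overlap. The means were 730.0 ± 20.1 CPM in RBM3KO and 556 ± 72.2 CPM in WT (log2 fold change 0.39, SE 0.10, edgeR adjusted p = 0.122). DESeq2 alone called it (adjusted p = 0.0120), and the adjusted p reached 0.386 over the alternatives.

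Traf2, which joins TNFR2, CD30 and GITR to NF-kB and MAP kinases, had 180.3, 192.4 and 141.7 CPM in RBM3KO and 142.5, 143.6 and 148.5 CPM in WT, with RBM3KO replicate 3 below all WT libraries (log2 fold change 0.24, SE 0.13, edgeR adjusted p = 0.497). Traf4 had 116.5, 102 and 153 CPM in RBM3KO and 90.1, 89.4 and 141 CPM in WT (0.21, SE 0.21). Traf7 had 193, 164 and 166 CPM in RBM3KO and 224, 179 and 166 CPM in WT (-0.12, SE 0.13), and its exons overlap those of Rab26 by 173 bases and those of Caskin1 by 110 bases. For each of these genes the genotypes overlapped.

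Traf6, which serves CD40, RANK and the IL-33 receptor pathway, averaged 28.6 ± 6.15 CPM in RBM3KO and 26.3 ± 6.14 CPM in WT (log2 fold change 0.12, SE 0.28). Traf3, which holds the noncanonical NF-kB kinase NIK at low levels, averaged 36.1 ± 11.9 CPM in RBM3KO and 38.7 ± 5.83 CPM in WT (-0.11, SE 0.28). Traf5, a close relative of TRAF2, had 4, 15 and 21 counts in RBM3KO and 17, 48 and 6 counts in WT (-0.13, SE 1.41). The adaptor Tradd, which docks on TNFR1 and DR3, had 91.7, 82.3 and 97.4 CPM in RBM3KO and 89.9, 84.1 and 89.6 CPM in WT (0.04, SE 0.13). Fadd, which links Fas to caspase-8, averaged 39.6 ± 8.95 CPM in RBM3KO and 45.8 ± 5.94 CPM in WT (-0.20, SE 0.23). The libraries of the genotypes overlapped for each of these genes.

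**Figure D5:**
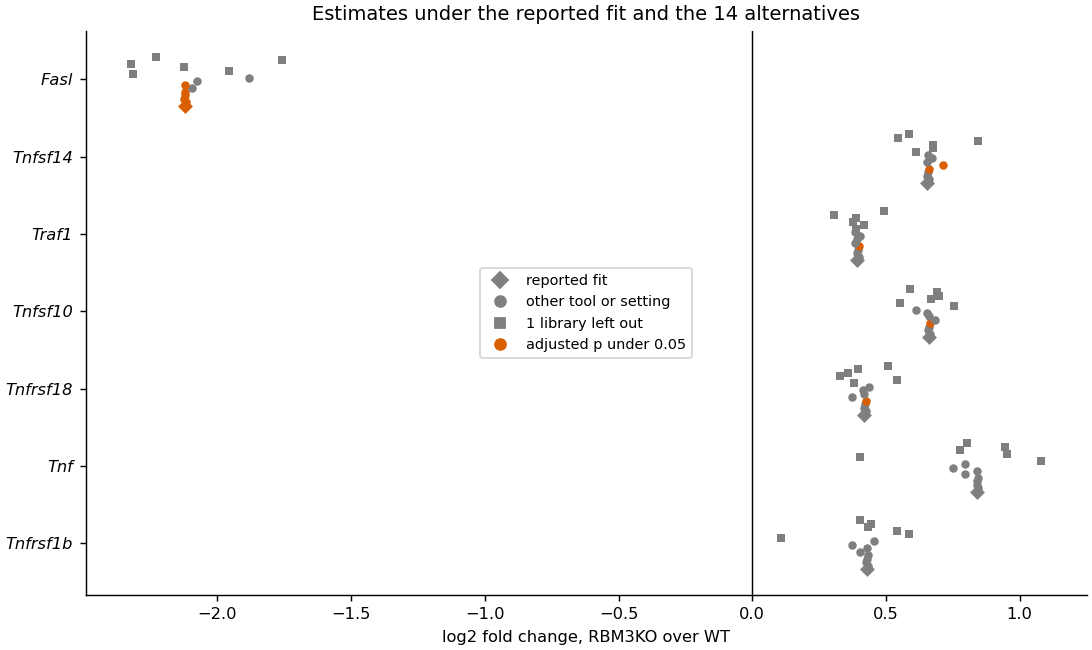
Log2 fold change of RBM3KO over WT for the 7 members with an unadjusted p under 0.05, under the reported fit (diamond), other tools or settings (circle) and with 1 library left out (square), orange where the adjusted p was under 0.05. No estimate crosses 0, Fasl is called in the reported fit and 5 alternatives, and Tnf and Tnfrsf1b are called in none.

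DESeq2 called 5 members, Fasl lower and Tnfsf14, Tnfsf10, Tnfrsf18 and Traf1 higher. Of all 12408 genes with an adjusted p, it called 433 in either direction, and 158 of these, or 1.27% of all, were higher. Limma-voom called 1 member, Tnfsf14, where it called 0.457% of 11381 genes higher. Of the 7 members with an unadjusted p under 0.05, none changed sign under any of the 14 alternatives. These 7 were picked by their p in the same libraries that the alternatives reuse, so the stable sign is no independent support.

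Many members are neighbours in the genome. With gaps of up to 100000 bases, 22 members fell into 9 groups of neighbours and 28 stood alone. Tnfsf9, Cd70 and Tnfsf14 lie within 88853 bases on chromosome 17, with log2 fold changes of 0.21, 0.52 and 0.65. Cd27, Ltbr and Tnfrsf1a lie within 129863 bases on chromosome 6, with -0.08, 1.23 and 0.16, and Tnfrsf1b and Tnfrsf8 within 101702 bases on chromosome 4, with 0.43 and -0.29. Fasl, the called member, is on chromosome 1 and in none of these groups.

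Downstream of the receptors, 55 signalling genes outside the family were listed, of which 52 were in the table and 51 were tested. In all 1 rose, 0 fell and 50 did not pass, or 1.96% called against the 1.24% of all genes. Tnfaip3, which encodes A20, an enzyme that shuts off NF-kB signalling from TNF receptors, had 1857, 1585 and 1632 CPM in RBM3KO and 1149, 1025 and 1353 CPM in WT, without overlap (log2 fold change 0.52, SE 0.11, edgeR adjusted p = 0.0495). It was called under 7 of the 14 alternatives, and its adjusted p ran up to 0.229. Its call ended with the non-robust fit, at equal depth and without each library in turn but WT replicate 3. The median of the list was 0.12, with 36 of 51 estimates above 0, where that of all genes was 0.01. At an unadjusted p under 0.05 (edgeR), 7 of the 51 were higher, or 13.7% against 5.46% of all genes, and 2 were lower. All RBM3KO libraries lay above all WT libraries for 7 and below for 3, together 19.6%, near the 18.9% of all genes.

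The 6 most abundant of the other signalling genes did not pass. Nfkbia, the inhibitor of NF-kB, averaged 3437 ± 415 CPM in RBM3KO and 2727 ± 408 CPM in WT (log2 fold change 0.33, SE 0.12, edgeR adjusted p = 0.259). Nfkb2 averaged 442 ± 49.9 CPM in RBM3KO and 387 ± 17.9 CPM in WT (0.19, SE 0.10), and Nfkb1, the other precursor subunit, 270.1 ± 58.2 and 281 ± 46.5 CPM in RBM3KO and WT (-0.06, SE 0.16). Rela, the transactivating subunit, averaged 228 ± 20.3 CPM in RBM3KO and 256 ± 18.7 CPM in WT (-0.17, SE 0.11), and Rbck1, a part of the linear ubiquitin ligase, 353 ± 20.9 and 350 ± 15.5 CPM in RBM3KO and WT (0.01, SE 0.09). Relb, a subunit of the noncanonical arm, averaged 206 ± 19.6 CPM in RBM3KO and 188 ± 27.6 CPM in WT (0.13, SE 0.13). Otulin, listed as Fam105b and named after its values were seen, encodes the enzyme that removes linear ubiquitin. It averaged 15.3 ± 5.04 CPM in RBM3KO and 38.5 ± 6.13 CPM in WT, without overlap (-1.34, SE 0.30, edgeR adjusted p = 0.0635). Nfkbie, also named after its values were seen, went the other way. It averaged 199 ± 36.9 CPM in RBM3KO and 133 ± 23.2 CPM in WT, without overlap (0.58, SE 0.16, edgeR adjusted p = 0.138).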

How the data were processed

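The deposited table holds the authors' raw counts, with gene symbols in rows and a column for each sample. Per the submitters' processing notes the tools were STAR 2.6.1c, Bowtie 1.0.0 and featureCounts 1.6.5, and the build was mm10, with no roles stated. None of the sources used here gives the annotation or strand setting. Per the labels' protocols, libraries came from Smart-seq2 and Nextera XT, which keep no strand and, as standard, carry no molecular identifiers, so intervals and floors cover counting error only.

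Genes were filtered with filterByExpr by genotype, scaled by TMM and tested in R 4.3.3 with the robust quasi-likelihood fit of edgeR 4.0.16 without covariates, with Benjamini-Hochberg adjustment over all tested genes (11381 and Rbm3) and a threshold of 0.05. SE is the size of the log2 fold change divided by the square root of F. Alternatives were RLE scaling, no filter, at least 10 CPM in 3 libraries, DESeq2 1.42.0, limma-voom 3.58.1, a non-robust fit, the replicate number as a block, equal depth and leaving out each library. The fit was tested on simulated counts of 10967 genes, some with a known change. It recovered 82% of changes of size 2 and 46% of changes of size 1 on the log2 scale, with 7 false calls. The known changes were put only in genes above a set mean CPM, so these shares do not cover the members of fewest counts. A gene that did not pass can therefore still differ. No pair of libraries agreed within sampling noise (chi-square at least 20.0 times its degrees of freedom), so all 6 were kept. Marker and family sums use library totals, not TMM. Lengths, coordinates and transcript sequences came from GENCODE M21, to which all 50 members matched by symbol. The window of 1 member is not reported here.

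Members, lists and tests were chosen with earlier results of these data known. Every tested member is named, with values per library where the unadjusted p was under 0.05 or the mean at least 50 CPM, and some others by choice. Signalling genes named are those called, the 6 most abundant of the others, and Otulin and Nfkbie, picked after their values were seen.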

Additional observations from a re-analysis of the deposited data

How the results depend on the processing

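Over all genes other than Rbm3, 141 were called. DESeq2 called 433, and leaving out 1 library gave 11 to 98 (77, 40 and 98 without RBM3KO replicates 1, 2 and 3, and 11, 52 and 66 without WT replicates 1, 2 and 3). Among the family 1 member was called, against 5 with DESeq2, 0 at equal depth, 0 with the replicate number as a block and 0 without each library in turn. Limma-voom also called 1 member, but a different one (Tnfsf14 in place of Fasl). Among the signalling genes 1 was called, against 2 with no filter, 2 at 10 CPM in 3 libraries, 3 with DESeq2, 2 with limma-voom and 2 with the replicate block, 0 with the non-robust fit and 0 at equal depth, and 0 to 1 with 1 library left out. Rbm3 stayed called, from -3.58 to -3.33. The median log2 fold change of the tested members ran from 0.10 to 0.23. Uncalled members changed sign under at least 1 alternative in 20 cases, all with a reported size of at most 0.87, and no called value changed sign. The labels state no pairing by replicate number. Deviations from the group means correlated between same-numbered libraries at 0.06, 0.06 and 0.01, and between the others at -0.07 to 0.02. With 3 libraries per genotype, these values cannot tell whether the numbers mark a pairing. Where a library is left out, its genotype keeps 2 libraries, and fewer genes were called over the whole table. A count of 0 allows up to 0.120 to 0.400 CPM.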
